A study of Mus musculus with 8 samples.

Results

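The Krt5-high cells of the thymic epithelium at E13.5 (embryonic day) were 235 of the 1981 E13.5 cells kept, or 11.9% (95% exact binomial interval 10.5 to 13.4, counting error only), out of 25750 cells kept in all 8 libraries. A cell was a member when it had at most 5% mitochondrial unique molecular identifiers (UMIs), at most 5000 detected genes, no UMI of Psmb11, at least 2 UMIs of Krt5, fewer than 3 UMIs of the parathyroid genes Gcm2, Chga and Casr together, and fewer than 2 UMIs of the thyroid genes Hhex, Nkx2-1 and Pax8 together. The comparison cells were the 1081 E13.5 cells with at least 1 Psmb11 UMI, which were limited neither on Krt5 nor on the parathyroid and thyroid genes. Of these, 218 also had 2 or more Krt5 UMIs and 863 had fewer. The remaining E13.5 cells were 475 with neither gene at these levels, 121 barred by parathyroid genes and 69 barred by thyroid genes. The choice of members used Krt5, Psmb11 and the 6 barring genes, and the rule was drawn up on this library, so that every E13.5 value below is a description without a test.

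All libraries came from wild-type C57BL/6 (CD45.2) mice, with no transgene and no treatment in any group, and the sources used here do not say whether animals were pooled. E13.5 TEC were sorted as DAPI- EpCAM+ CD45- cells from 1 library, without Ly51 or the lectin UEA-1, whereas cortical TEC (cTEC) at E15.5, E17.5, newborn (NB, 0 to 2 days) and adult (4 to 6 weeks) were sorted as Ly51+ UEA-1- and adult medullary TEC (mTEC) as Ly51- UEA-1+. There was 1 library of each age before the adult and 2 of each adult group, mice of either sex were used, and embryonic thymi were dissociated with trypsin and EDTA while later thymi were digested with Liberase and DNase, so that between E13.5 and the newborn and adult libraries age, digestion and gate cannot be told apart. The Krt5-high cells had a median of 8196 UMIs and the Psmb11-positive cells 7116, and 2005271 and 8372677 UMIs in total, with medians of 1.33% and 1.39% mitochondrial UMIs. Of the 235 member barcodes, 8 were also found in another library, as were 74 of all 1981. Median depth per library ran from 3996 to 11386 UMIs.

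The thymus trains T cells, and its epithelium is divided into a cortex, where thymocytes are positively selected, and a medulla, where self-reactive cells are removed. Psmb11 encodes a proteasome subunit made by cTEC, and Krt5 a basal keratin that marks mTEC and part of the immature epithelium. Medullary differentiation is known to depend on NF-kB signals through receptors such as RANK (Tnfrsf11a) and CD40, and the mature medulla also holds cells that resemble the outer layers of skin.

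Among genes outside the rule, genes for secreted and adhesion proteins of stratified epithelium were among the highest in the Krt5-high cells. Levels were compared as CPM, the UMIs summed over the cells of a group and scaled to a common total, while fold changes carry an exact 95% interval for counting error only, and ratios for ranking were log2 of CPM + 10. Krtdap, a peptide secreted by differentiating keratinocytes, was at 1075 CPM in the Krt5-high cells and 56.7 CPM in the Psmb11-positive cells (19-fold, interval 17.2 to 21). Its UMIs were found in 68.1% of members and 12.8% of Psmb11-positive cells. Dmkn (dermokine), which is secreted by the suprabasal epidermis, was at 178 against 12.8 CPM (13.9-fold, interval 11.2 to 17.46). Sbsn (suprabasin), a further suprabasal secreted protein, was at 94.3 against 14.9 CPM (6.31-fold, interval 5.01 to 7.98). These genes lie next to each other on chromosome 7. The cells barred by parathyroid and thyroid genes, which share the free RNA of the library, had Krtdap at 11.6 and 13.8 CPM and Dmkn at 1.66 and 1.97 CPM.

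The 250 bases before the start of each of these neighbours are given from RefSeq (GRCm38.p6, plus strand), because the genes were high together, with matches to the AP-1 letters TGANTCA on either strand in capitals. Sbsn was read at chr7:30751221-30751470, Dmkn (the first of 3 listed starts) at chr7:30763506-30763755 and Krtdap at chr7:30787655-30787904, and the starts were 12285 and 24149 bases apart.
Sbsn: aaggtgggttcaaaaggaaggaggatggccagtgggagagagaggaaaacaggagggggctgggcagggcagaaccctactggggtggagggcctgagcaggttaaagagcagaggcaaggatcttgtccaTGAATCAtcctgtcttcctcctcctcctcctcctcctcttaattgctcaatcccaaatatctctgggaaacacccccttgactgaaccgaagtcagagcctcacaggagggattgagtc
Dmkn: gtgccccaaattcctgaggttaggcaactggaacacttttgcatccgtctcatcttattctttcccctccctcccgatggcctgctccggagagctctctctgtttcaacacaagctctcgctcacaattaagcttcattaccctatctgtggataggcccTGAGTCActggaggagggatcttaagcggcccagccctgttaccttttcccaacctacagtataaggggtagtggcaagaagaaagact
Krtdap: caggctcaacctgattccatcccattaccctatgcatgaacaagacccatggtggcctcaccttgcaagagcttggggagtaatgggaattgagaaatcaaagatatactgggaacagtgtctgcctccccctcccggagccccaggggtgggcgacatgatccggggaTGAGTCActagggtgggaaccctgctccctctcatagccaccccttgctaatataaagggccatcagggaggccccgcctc
Each window held 1 match to the AP-1 letters, starting 119, 89 and 81 bases before the start of Sbsn, Dmkn and Krtdap. The N was read as any base, and was A in Sbsn and G in Dmkn and Krtdap. The letters TGANTCA occurred in 6.87% of the 27025 genes with a window of this length. No window held the GRHL letters AACNNGTT, found in 3.63% of genes, and all 3 held the RBPJ letters TGGGAA on either strand, found in 21.5%.

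Of the 22 genes listed as suprabasal secreted and adhesion genes, 12 reached 50 CPM in one of the groups, and 7 of these were at least 2-fold higher and none lower in the Krt5-high cells. Over all 3367 genes outside the rule at 50 CPM or more, 144 (4.28%) were at least 2-fold higher and 119 (3.53%) lower. The median log2 ratio of the listed genes with a UMI was 0.96, and that of all genes -0.02. Perp, a desmosomal membrane protein, was at 881 against 213 CPM, Sfn (the cell-cycle checkpoint protein 14-3-3 sigma) at 1169 against 508 CPM and Fxyd3, an ion transport regulator, at 674 against 242 CPM. The desmosome genes Pkp1 (87.8 against 19.7 CPM) and Jup (174 against 82.3 CPM) were also higher, while Dsc2 was at 81.3 against 85.5 CPM and Dsp at 505 against 296 CPM. Of the cornified envelope, Ivl (involucrin) was at 2.99 CPM and Lor (loricrin) at 2.49 CPM in the Krt5-high cells.

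**Figure D1:**
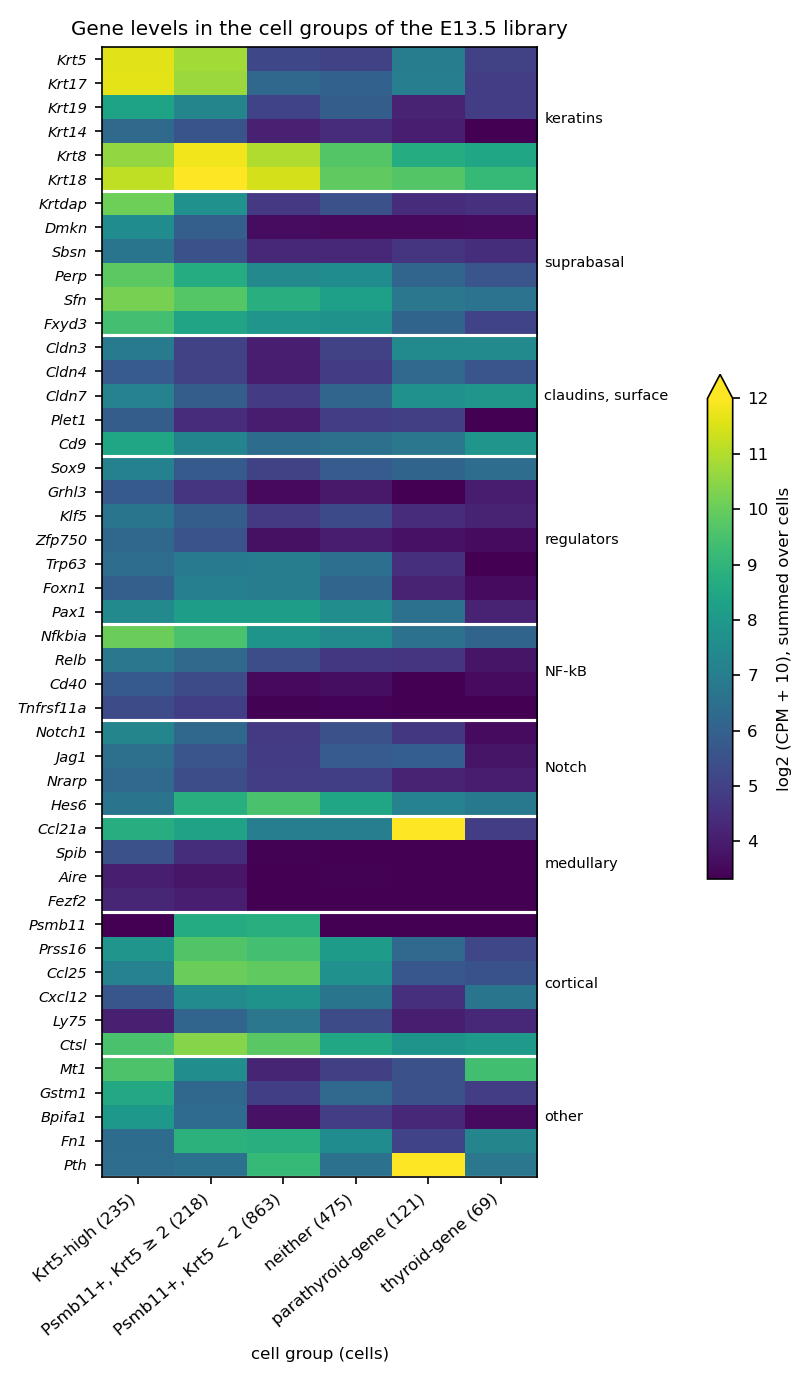
Levels of 47 genes in 6 cell groups of the E13.5 library, as log2 of CPM + 10 of UMIs summed over cells; the colour scale ends at 12, and cell numbers stand in brackets. Krtdap, Dmkn, Cldn3 and Notch1 are brightest among thymic groups in the Krt5-high cells, the cells with both genes lie between, and Ccl21a and Pth are brightest in the parathyroid-gene cells.

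Krt17, Krt19 and Krt14 were higher in the Krt5-high cells, while Krt8 and Krt18 were lower by less than 2-fold. Krt17, a keratin of basal and activated epithelium, was at 3171 CPM in the Krt5-high cells and 403 CPM in the Psmb11-positive cells (7.86-fold, interval 7.54 to 8.2). In the 863 Psmb11-positive cells with fewer than 2 Krt5 UMIs it was at 65.6 CPM. Krt19, a keratin of simple epithelium, was at 314 against 49.4 CPM (6.35-fold, interval 5.6 to 7.21), with UMIs in 63.4% of members and 16.8% of Psmb11-positive cells. Krt14, the usual partner of Krt5 in basal cells, was low in both groups, at 70.3 against 13.7 CPM. Krt8 (1550.4 against 2347 CPM) and Krt18 (2272 against 3446 CPM), also of simple epithelium, were high in both groups, and were highest in the cells with both Krt5 and Psmb11, at 3575 and 6023 CPM. Of the 15 keratins listed, 5 reached 50 CPM outside the rule, of which 3 were at least 2-fold higher in the Krt5-high cells.

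The 12 genes with the highest ratio were Krtdap, Mt2, Mt1, Il4i1, Gstm1, Bpifa1, Pvrl4, Dmkn, Krt17, Ccl5, Sprr2a3 and Cldn3. The zinc-binding metallothioneins Mt1 (759.5 against 45.5 CPM, 16.7-fold, interval 14.9 to 18.7) and Mt2 (248 against 7.88 CPM, 31.5-fold, interval 24.3 to 41.4) were also high in the cells barred by thyroid genes, at 654 and 465 CPM. Pvrl4, the adhesion molecule nectin-4, was at 181 against 12.3 CPM (14.7-fold, interval 11.8 to 18.5) and was spread over 66.4% of members. The detoxifying enzyme Gstm1 was at 371 against 30.8 CPM (12-fold, interval 10.4 to 13.9). Il4i1, a secreted amino acid oxidase, was at 152 against 7.29 CPM (20.8-fold, interval 15.8 to 27.9). It had UMIs in 22.6% of members, and 10 members held 44.4% of them. Bpifa1, a secreted protein of the airway, was at 238 against 18.4 CPM, and 10 members held 71.1% of its UMIs. The corresponding shares were 67.5% for Sprr2a3, a precursor of the cornified envelope (93.8 against 6.81 CPM), and 63.3% for the chemokine Ccl5 (167 against 17 CPM). Sprr2a3 has close paralogs, between which the counting could have divided reads.

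**Figure D2:**
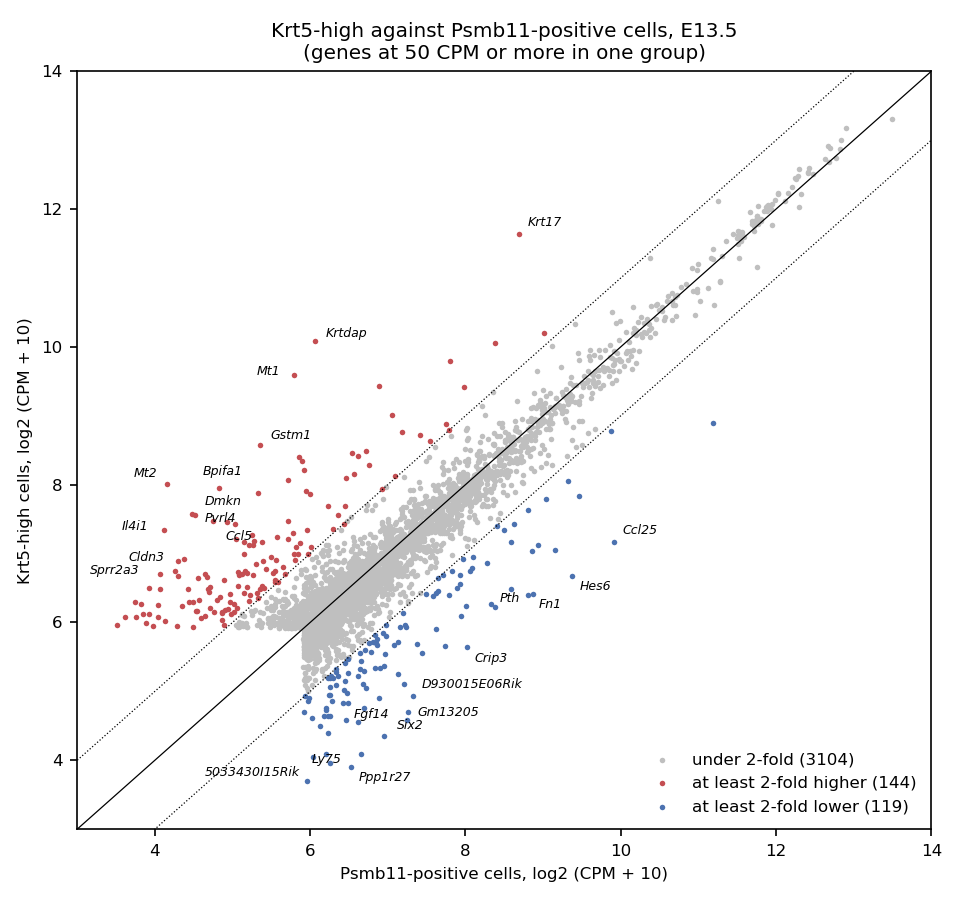
Summed level of each gene at 50 CPM or more in one group in Krt5-high cells (y axis) against Psmb11-positive cells (x axis), both as log2 of CPM + 10, without the genes of the rule; dotted lines mark 2-fold. The 144 genes above and 119 below the dotted lines are coloured, and the 24 named genes are labelled, with Krtdap, Mt1 and Mt2 farthest above and Ccl25 and Hes6 farthest below the diagonal.

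Of the 18 listed transcription factors of stratified epithelium, 15 were higher and 3, Trp63 and Grhl2 among them, were lower in the Krt5-high cells, beside 7123 higher and 9846 lower of all 16969 genes with a UMI. Klf5, a factor of proliferating epithelium, was at 93.8 against 24.7 CPM (3.79-fold, interval 3.1 to 4.64). Zfp750, a regulator of terminal epidermal differentiation, was at 65.8 against 10.4 CPM (6.33-fold, interval 4.8 to 8.4). Of the 4 listed factors at 50 CPM, 3 were at least 2-fold higher and none lower, but Klf5 and Zfp750 reached this level in the Krt5-high and not in the Psmb11-positive cells. Below 50 CPM, the grainyhead factors Grhl1 and Grhl3 were at 46.9 against 10.0 CPM and 44.4 against 4.54 CPM, and Grhl2 at 22.4 against 23.1 CPM. Trp63, which encodes p63, the master regulator of stratified epithelium, was at 75.3 against 116 CPM (1.54-fold lower, interval 1.29 to 1.83). Sox2, a factor of oesophagus and airway, had 0.499 CPM.

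Of the 8 listed claudins and progenitor markers at 50 CPM, 6 were at least 2-fold higher in the Krt5-high cells, and none lower. The tight junction genes Cldn3 (109 against 9.67 CPM, 11.2-fold, interval 8.67 to 14.7), Cldn7 (134 against 25.6 CPM, 5.23-fold, interval 4.35 to 6.29) and Cldn6 (154 against 68.3 CPM) were among them, and Cldn4, which fell short of 50 CPM, was at 46.9 against 9.67 CPM. Cldn3 was also high outside the thymic cells, at 166 CPM in the parathyroid-gene cells and 167 CPM in the thyroid-gene cells. Sox9, a factor of progenitor epithelium, was at 130.2 against 27.1 CPM (4.8-fold, interval 4.0 to 5.76), and the tetraspanin gene Cd9 at 333 against 88.3 CPM. Plet1, a surface marker of early thymic epithelium, was at 48.4 against 7.17 CPM. Epcam, on which the cells were sorted, was at 927 against 761 CPM.

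Among genes of the medullary lineage Ccl21a and Cldn3 were higher, while Aire and Fezf2 were below 10 CPM. Of the listed medullary genes Ccl19 had no UMI in either group, and of the 17 gene IDs with one (Ccl21a has 2) 16 were higher and 1 (Fn1, fibronectin) was lower in the Krt5-high cells, but this list holds Krt5 itself and was drawn up with these data known. Outside the rule 4 of them reached 50 CPM, of which 3 (Ccl21a, Cldn3 and Krt14) were at least 2-fold higher and 1 (Fn1) lower. Cldn3 and Krt14 reached this level in the Krt5-high and not in the Psmb11-positive cells. Aire and Fezf2, the factors that switch on tissue-restricted genes in mature mTEC, were at 6.48 and 8.98 CPM in the Krt5-high cells and 0.955 and 1.43 in the Psmb11-positive cells. Spib was at 34.4 against 2.99 CPM. The medullary chemokine Ccl21a was at 414 against 161 CPM, but at 8948 CPM in the parathyroid-gene cells and 123 CPM in the cells with neither gene. After each cell was thinned to 3000 UMIs, Ccl21a was seen in 23.7% of Krt5-high, 14.6% of Psmb11-positive and 2.99% of thyroid-gene cells, and 10 members held 63.3% of its UMIs. The part of free RNA in this difference was not tested, and Ccl21a has near-identical copies.

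Of the 18 listed genes of the NF-kB route, 13 were higher and 5 lower in the Krt5-high cells, with a median log2 ratio of 0.40 beside -0.02 for all genes. Tnfrsf11a (RANK) was at 29.4 against 4.66 CPM (6.32-fold, interval 4.14 to 9.72) and Cd40 at 45.4 against 7.76 CPM (5.85-fold, interval 4.21 to 8.16), whereas Ltbr was at 43.9 against 33.3 CPM. Relb, the subunit of the alternative route, was at 102 against 40.1 CPM (2.54-fold, interval 2.12 to 3.03), and its partner Nfkb2 at 58.3 against 25.3 CPM. Nfkb1, of the classical route, was lower, at 73.3 against 182 CPM (2.49-fold lower, interval 2.1 to 2.97). The inhibitor Nfkbia, itself a target of the pathway, was at 1053 against 323 CPM (3.26-fold, interval 3.08 to 3.45). Of the listed genes, 4 reached 50 CPM, of which 2 (Relb and Nfkbia) were at least 2-fold higher and 1 (Nfkb1) lower.

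Notch genes also differed in both directions. The receptors Notch1 (145 against 28.2 CPM, 5.13-fold, interval 4.31 to 6.12) and Notch3 (63.8 against 16.1 CPM), the ligand Jag1 (82.3 against 23.5 CPM) and the feedback gene Nrarp (67.3 against 22.3 CPM) were higher in the Krt5-high cells. The ligands Dll4, which cTEC present to thymocyte progenitors (3.49 against 29.6 CPM), and Jag2 (3.49 against 19.6 CPM) were lower. Hes6, of the Hes family, was at 92.3 against 649.7 CPM (7.04-fold lower, interval 6.08 to 8.2), while the Notch target Hes1 was at 49.9 against 31.4 CPM. The median log2 ratio of the 18 listed Notch genes was -0.04.

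Antigen presentation genes were higher in sum than in the Psmb11-positive cells and more uneven among the cells. This was not particular to the Krt5-high cells. The listed genes summed to 3312 CPM in them, 2177 CPM in the Psmb11-positive cells and 3637 CPM in those of the latter with 2 or more Krt5 UMIs. In these double cells they made up a median of 0.243% of UMIs. The class II genes H2-Aa (265 against 138 CPM) and H2-Eb1 (425 against 135 CPM) and the invariant chain gene Cd74 (1028 against 543 CPM) were higher by the summed level. At 3000 UMIs a cell, however, H2-Aa was seen in 24.1% of Krt5-high and 24.7% of Psmb11-positive cells, and Cd74 in 39.9% and 50.3%. The listed genes made up a median of 0.0673% of UMIs in the Krt5-high cells (quartiles 0.0322 to 0.411%) and 0.141% in the Psmb11-positive cells (0.0680 to 0.311%), so that the median and the sum differed in direction. The class I genes H2-K1 (117 against 47.3 CPM), H2-D1 (141 against 37.4 CPM) and B2m (269 against 126 CPM) were higher. The immunoproteasome gene Psmb10 was lower, at 158 against 328 CPM.

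Cortical genes were lower in the Krt5-high cells. Of the 9 cortical genes at 50 CPM outside the rule, 6 (Prss16, Cd83, Ly75, Cxcl12, Ccl25 and Kitl) were at least 2-fold lower and none higher, with a median log2 ratio of -1.55 over those with a UMI, Psmb11 included. Ccl25, the chemokine that draws progenitors into the thymus, was at 133 against 954 CPM (7.17-fold lower, interval 6.34 to 8.13). Ly75 (DEC-205), a surface receptor of cTEC, was at 6.98 against 91.1 CPM (13.1-fold lower, interval 7.73 to 24). Prss16, a thymus-specific serine protease, was at 218 against 698 CPM (3.2-fold lower, interval 2.9 to 3.53), and the chemokine Cxcl12 at 40.4 against 203 CPM (5.02-fold lower, interval 4.01 to 6.35). Prss16 was not absent: at 3000 UMIs it was seen in 39.9% of Krt5-high, 75.6% of Psmb11-positive, 9.35% of parathyroid-gene and 4.48% of thyroid-gene cells. Il7, the T cell growth factor, was at 171 against 334 CPM, and the protease gene Ctsl at 724 against 972 CPM.

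Other genes among the 12 lowest were Gm13205, Ppp1r27, Six2, Fgf14, Pth, Fn1, D930015E06Rik, Crip3 and 5033430I15Rik. Fn1 was at 74.3 against 439 CPM (5.9-fold lower, interval 5.01 to 7.0), the homeobox gene Six2 at 10.5 against 114 CPM and Fgf14 at 16 against 143 CPM. Gm13205 is annotated as antisense, and whether the counting used strand is not given in the sources used here. Pth, the parathyroid hormone, was at 75.3 against 456 CPM, but the parathyroid limit had been set on the Krt5-high cells only. With the limit on both groups the Psmb11-positive cells had 82.7 CPM and the log2 ratio was -0.12 in place of -2.45.

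Foxn1, the factor that organises thymic epithelium, was at 52.4 against 116 CPM (2.21-fold lower, interval 1.81 to 2.73), and Fgfr2, the receptor of growth factors that expand TEC, at 44.4 against 106 CPM (2.39-fold lower, interval 1.92 to 3.0). The other 9 thymus organogenesis factors at 50 CPM differed by less than 2-fold, with Pax1 at 166 against 274 CPM and Pax9 at 109.7 against 166 CPM. None of the 4 Wnt pathway genes at 50 CPM passed 2-fold, and of the 6 BMP and FGF genes 1 did (Fgfr2 again). Among 5 hemidesmosome and basement membrane genes 1 was lower (Dst, 20.9 against 65.7 CPM), and of 8 fetal growth genes 1 was lower (Cdkn1c, a cell-cycle inhibitor, 58.3 against 236 CPM). Median log2 ratios were -0.04 for Wnt, -0.15 for BMP and FGF, and -0.21 for basement membrane genes, beside -0.02 for all genes.

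Cell-cycle genes differed little. G2M phase genes made up 0.789% of UMIs in the Krt5-high cells and 0.930% in the Psmb11-positive cells, and S phase genes 0.321% and 0.357%. No gene of either list at 50 CPM passed 2-fold. Ribosomal protein genes made up 27.4% and 25.3%. Immediate early and heat shock genes, which are also induced by tissue dissociation, were higher in the Krt5-high cells, with 5 of the 7 at 50 CPM at least 2-fold higher. Fos was at 259 against 42.6 CPM, Egr1 at 129.7 against 28.4 CPM and Hspb1, a heat shock gene, at 506 against 123 CPM. The 16 stress genes made up a median of 0.167% of UMIs in Krt5-high, 0.0893% in double, 0.0469% in Psmb11-positive and 0.0478% in cells with neither gene, and the part of these genes in the differences above was not tested.

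Markers of blood, vessel and mesenchymal cells were low in both groups. The summed level of 8 mesenchymal genes was 1.99 CPM in the Krt5-high and 11 CPM in the Psmb11-positive cells, with 6 of 8 at 0 in the former. The 8 thymocyte genes summed to 6.48 and 5.26 CPM, the 6 myeloid genes to 2.99 and 3.11 CPM, the 6 endothelial genes to 19.9 and 22.1 CPM and the 8 erythroid genes to 44.4 and 46 CPM. The epidermis list summed to 64.3 and 58 CPM, with Flg, Flg2 and Krt2 at 0, and the oesophagus and airway list to 3.49 and 6.93 CPM. The parathyroid list, which holds genes of the limit set on the Krt5-high cells only, summed to 174 and 718 CPM. Among 6 neural genes Stmn2 was high in both groups, at 1376 against 1213 CPM, while Tubb3 and Sox10 were at 0 in the Krt5-high cells. Krt19, Krtdap and Dmkn, the markers given for these cells, were thus higher than in the Psmb11-positive cells, but the factors of mature mTEC were scarce, and the cells are called Krt5-high here.

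The members were not uniform. Their median Krt5 count was 21 UMIs, 23 members had exactly 2 and 171 had 10 or more. The 23 members with 2 Krt5 UMIs, just inside the rule, had 121 CPM of Krtdap and 257 CPM of Hes6, and the 83 Psmb11-negative cells with 1 Krt5 UMI, just outside, had 43.7 and 387 CPM. Members with 10 or more had 1352 and 63.5 CPM. Just outside on the other side, 84 cells with 2 or more Krt5 UMIs and a single Psmb11 UMI had 306 CPM of Krtdap and 516 CPM of Ccl25, beside 124 CPM of Ccl25 in members with 10 or more Krt5 UMIs.

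Levels along Krt5 were compared after each cell was thinned to 3000 UMIs. Among cells without Psmb11, Krtdap went from 41.8 CPM at no Krt5 UMI to 311 CPM at 2 to 4 and 1568 CPM at 10 or more. In cells with Psmb11 it went from 15.7 to 30.8 and 561 CPM. Krt17 at 10 or more Krt5 UMIs was similar with and without Psmb11, at 4788 and 5250 CPM. The secreted growth factor gene Ptn, lower in the Krt5-high cells (468 against 2315 CPM), went from 2546 to 386 CPM in cells with Psmb11 and from 1909.5 to 265 CPM in cells without. Prss16 did not follow Krt5 in this way, at 309 and 238 CPM in cells without Psmb11 and 719.6 and 621 CPM in cells with it. In cells without Psmb11, Gstm1 was highest at 2 to 4 Krt5 UMIs, at 778 CPM, and was 142 CPM at 10 or more. In cells with Psmb11 it was highest at 5 to 9, at 155 CPM, and was 45.5 CPM at 10 or more.

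**Figure D3:**
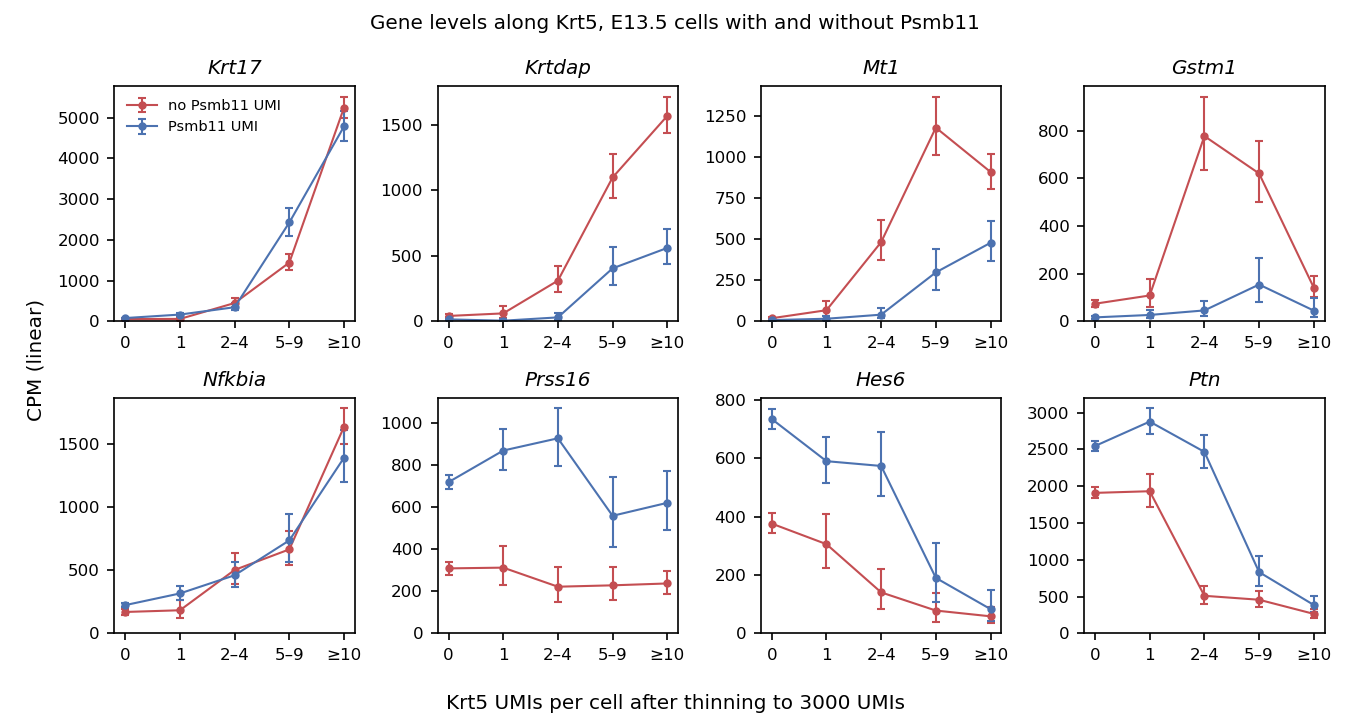
Summed CPM (y axes, linear, from 0) of 8 genes in E13.5 cells grouped by Krt5 UMIs (x axes) after thinning each cell to 3000 UMIs, with and without a Psmb11 UMI; bars are 95% Poisson intervals for counting error. Krt17 and Nfkbia climb with Krt5 in both kinds of cell, Hes6 and Ptn decline in both, and Prss16 differs by Psmb11 at every level of Krt5.

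Within the 228 members deep enough to thin, gene pairs followed each other to unequal degrees. Krt5, which the rule used, followed Krt17 (Spearman's rho 0.67 over cells), Clu (0.54) and Krtdap (0.40). Krt17 followed Clu (clusterin, 0.52) and was close to 0 with Krtdap (0.04) and Mt1 (-0.01), whereas Krtdap followed Dmkn (0.47) and Mt1 (0.46). These cells share a library and the values are descriptions. Dmkn was seen in 42.7% of the 124 members with a Krtdap UMI and 5.77% of the 104 without. Bpifa1 was at 118 CPM with Krtdap and 548 CPM without.

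The same rule was applied to the other libraries. It took 24 of 3571 cells (0.672%) in E15.5 cTEC, 3 of 8350 (0.0359%) in E17.5 cTEC, 24 of 3605 (0.666%) in NB cTEC, and 62 of 507 and 35 of 535 (12.2% and 6.54%) in the adult cTEC libraries. In the adult mTEC libraries it took 819 of 1586 (51.6%) and 2364 of 5615 cells (42.1%). Thinned to 3000 UMIs, the E13.5 share was 13.1% and the adult mTEC shares 40.1% and 23.2%. The Ly51 and UEA-1 gates, which were absent at E13.5, can set these shares, and no order over age was read from them.

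**Figure D4:**
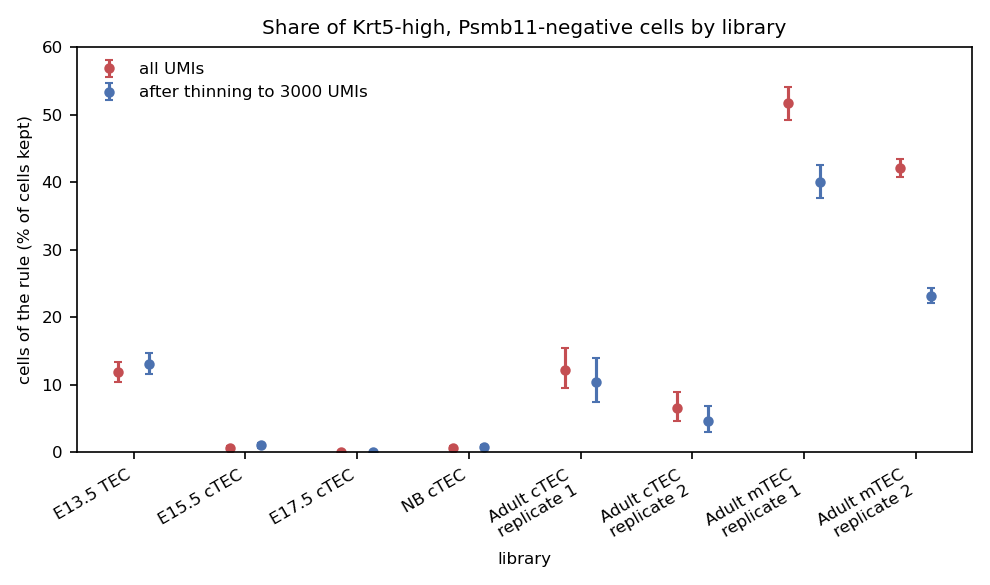
Share of kept cells (y axis, %) that met the rule in each of the 8 libraries (x axis), with all UMIs and after thinning each cell to 3000 UMIs; bars are 95% exact binomial intervals for counting error. The adult mTEC libraries lie highest, E13.5 TEC lies near the first adult cTEC library, and E15.5, E17.5 and NB cTEC lie near 0.

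Whether the E13.5 pattern was found in cells the rule had not been drawn up on was tested in the 4 later cTEC libraries with at least 20 cells of each kind (E15.5, NB and both adult cTEC libraries). Cells of the rule were compared with Psmb11-positive cells of the same library, with the library as a block (edgeR quasi-likelihood test, Benjamini-Hochberg adjustment over 8847 genes). In all, 375 genes (4.24%) were higher and 287 (3.24%) lower in the cells of the rule. These counts include Krt5 (higher) and Psmb11 (lower), whose direction the rule had set. Of the 144 genes at least 2-fold higher at E13.5, 136 were tested, of which 77 (56.6%) rose and 1 fell. Of the 119 genes at least 2-fold lower, 118 were tested, of which 64 (54.2%) fell and 2 rose. The median log2 differences were 1.30 and -1.11, beside -0.03 over all genes.

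Of the 12 highest E13.5 genes, 10 rose and 2 did not pass the test in the later libraries. By library, 10 of them were higher and 2 lower at E15.5, 8 higher and 4 lower in NB, 11 higher and 1 lower in adult replicate 1, and 12 higher in adult replicate 2. Krtdap rose (log2 difference 4.23, SE 0.55, adjusted p = 9.67e-05), and was at 757, 8.57, 177 and 151 CPM in cells of the rule at E15.5, in NB and in adult replicates 1 and 2, against 8.91, 2.48, 19.8 and 24.7 CPM in Psmb11-positive cells. The cells of the rule were thus above the Psmb11-positive cells in every library of the fit, but the NB value rested on 1 UMI in 24 cells, and 18 of the 31 UMIs in adult replicate 2 came from 1 cell. Dmkn (log2 difference 5.83, SE 0.57, adjusted p = 5.34e-06), Cldn3 (log2 difference 5.51, adjusted p = 3.10e-05) and Pvrl4 (4.34, adjusted p = 0.00108) rose as well, although neither Pvrl4 nor Cldn3 had a UMI in the 24 NB cells of the rule, and 17 of the 29 Cldn3 UMIs in adult replicate 2 came from 1 cell. Dmkn was at 28.9, 42.9, 66 and 122 CPM in the cells of the rule and 0.449, 1.14, 0.823 and 1.65 CPM in the Psmb11-positive cells of these libraries, but in each library a few cells carried it: 4 of 24 cells of the rule at E15.5 (6 UMIs, 3 in 1 cell), 1 of 24 in NB (5 UMIs), 4 of 62 in adult replicate 1 (19 UMIs, 16 in 1 cell) and 5 of 35 in adult replicate 2 (25 UMIs, 18 in 1 cell). On the log2 scale Ccl5 (0.76, adjusted p = 0.337) and Il4i1 (2.65, adjusted p = 0.0676) did not pass. Bpifa1 rose in the fit (5.70, adjusted p = 0.00680) but unevenly: at E15.5 it had 1690 UMIs in 7 of 24 cells, 794 of them in 1 cell, and in adult replicate 2 it had 2 UMIs in 35 cells. Outside the 12, Krt19 rose (log2 difference 5.79, SE 0.35, adjusted p = 2.14e-08), with 125 of its 246 UMIs in adult replicate 1 in 1 cell and 9 UMIs in 2 of 24 NB cells.

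**Figure D5:**
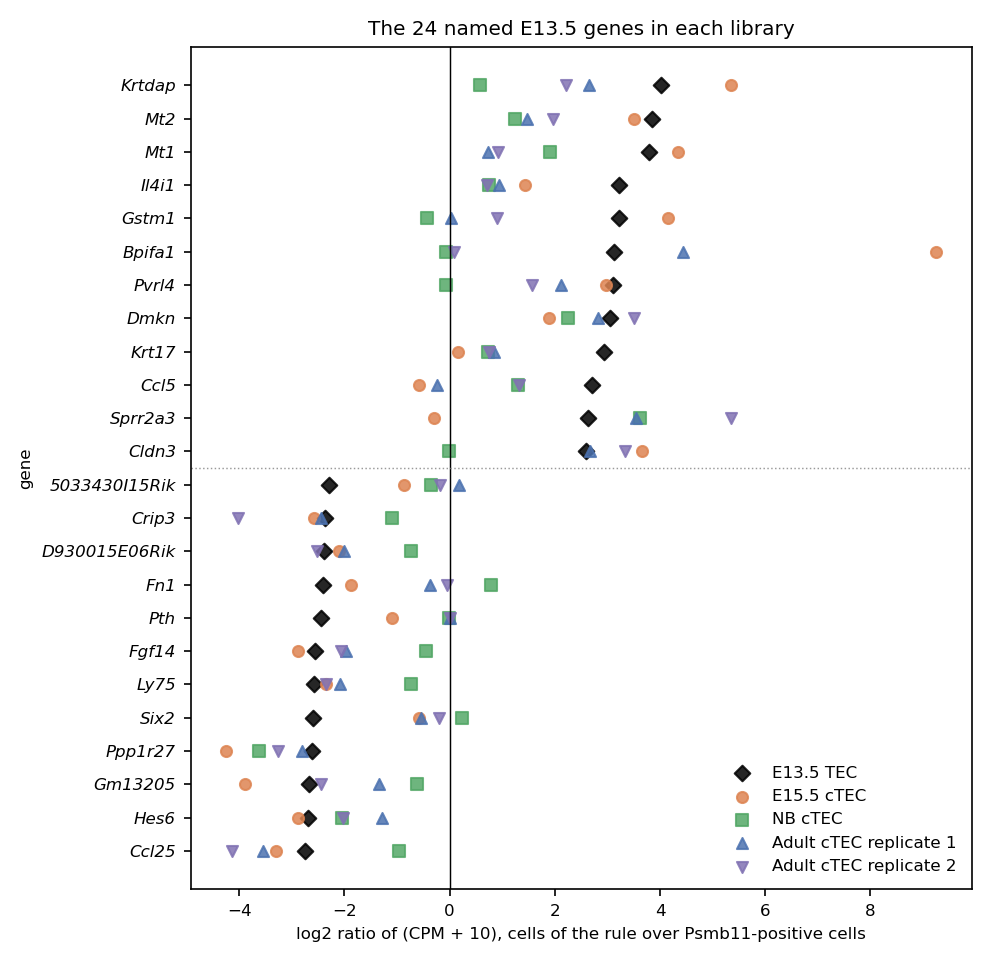
Log2 ratio of CPM + 10 (x axis) between cells of the rule and Psmb11-positive cells for the 12 highest and 12 lowest E13.5 genes (y axis) in E13.5 TEC and the 4 later libraries of the fit. Dmkn and Ppp1r27 keep their side in all 5 libraries, while Bpifa1, Gstm1 and Fn1 spread widely.

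By gene group, with values as log2 differences, 10 of 18 tested suprabasal genes and 10 of 14 claudins and progenitor markers rose and none fell. Of 11 stratified epithelium factors 6 rose, among them Zfp750 (4.90, adjusted p = 0.00365). Sox9 rose (1.08, adjusted p = 0.0115), and Trp63 was at -0.29 (adjusted p = 0.542). Among medullary genes 6 of 12 rose, with Ccl21a at 3.48 (adjusted p = 2.02e-05). Of the 12 lowest E13.5 genes 11 were tested, of which 8 fell. Of 14 cortical genes 11 fell and none rose, including Ccl25 (log2 difference -3.01, SE 0.36, adjusted p = 3.87e-05) and Prss16 (-2.65, adjusted p = 1.60e-04). Foxn1 fell (-1.12, adjusted p = 0.00428) and Hes6 fell (-2.14, adjusted p = 9.30e-06). None of the 18 NF-kB genes passed, with Relb at -0.21 (adjusted p = 0.777), Nfkbia at 0.03 (adjusted p = 0.966) and Cd40 at -0.45 (adjusted p = 0.726), and Notch1 was at 1.40 (adjusted p = 0.0552). Of 50 G2M phase genes 10 rose and none fell (median 0.78), and none of 34 S phase genes passed. Of 16 stress genes 6 rose, including Fos (1.55, adjusted p = 0.0142).

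In the adult cTEC libraries the cells of the rule held more UMIs of the mesenchymal list, at 886 and 1293 CPM against 263 and 186 CPM, nearly all of it from Dcn (decorin, 858 and 1259 CPM), while Pdgfra, Pdgfrb and Col1a1 were at 0 in these cells in both libraries. Myeloid genes were also higher in adult replicate 1, at 313 against 176 CPM, most of it Lyz2, while in adult replicate 2 they were at 24.3 against 17.1 CPM. Thymocyte genes were lower in the cells of the rule, at 38.2, 19.4 and 8.57 CPM in adult replicates 1 and 2 and NB against 80.7, 89.2 and 72.5 CPM. The oesophagus and airway list was at 72.3 against 3.56 CPM at E15.5, all of the former from 15 UMIs of Krt4. The part of these lists in the later result was not tested. Without adult cTEC replicate 2 the calls were 159 higher and 134 lower, and without the library block 14 and 11.

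The adult mTEC libraries also held at least 20 cells of each kind but were left out above, since their gate removes most Psmb11-positive cells. They held 819 cells of the rule beside 25 Psmb11-positive cells, and 2364 beside 253. There the 12 highest E13.5 genes did not stay on 1 side: 6 were higher and 6 lower in either library, and 5 and 0 were at least 2-fold higher, with 1 and 0 at least 2-fold lower. Of the 12 lowest, 9 were lower and 3 higher in either library, and 5 and 4 were at least 2-fold lower. In E17.5 cTEC, with 3 cells of the rule, all 12 of the highest genes had a ratio below 0. Krtdap, Dmkn, Cldn3, Bpifa1 and Sprr2a3 had no UMI in these 3 cells, so that their ratios could not be above 0. When both adult mTEC libraries were added to the fit, an alternative chosen after seeing the data, 130 of 13031 genes (0.998%) were higher and 148 (1.14%) lower. Of the genes at least 2-fold higher at E13.5, 30 of 143 (21%) then rose and none fell, and of those lower 28 of 119 (23.5%) fell and 1 rose. Of the 12 highest, Krtdap, Dmkn and Krt17 rose, and of the 12 lowest 8 fell. Of the suprabasal genes 5 of 21 rose, of the claudins and progenitor markers 6 of 15, and of the stratified epithelium factors Klf4 and Klf5 (2 of 14), while Sbsn, Cldn3, Cldn4, Cldn7, Calml3, Aqp3, Sox9, Zfp750 and Fos no longer passed. Of the cortical genes 7 of 14 fell. Of the medullary list 4 of 16 rose and Aire fell, and none of the G2M phase genes passed.

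Adult mTEC were compared with adult cTEC, sorted on surface markers and not on Krt5 or Psmb11, over 4 libraries with data set as a term (edgeR quasi-likelihood test, 15650 genes). This comparison shares its adult cTEC libraries with the later fit and all 4 libraries with the fit to which adult mTEC was added. In all, 3339 genes (21.3%) were higher and 1771 (11.3%) lower in mTEC. Of the 144 genes at least 2-fold higher at E13.5, 65 (45.1%) rose and 16 (11.1%) fell in adult mTEC, and of the 117 tested genes at least 2-fold lower, 84 (71.8%) fell and 3 rose. On the log2 scale Krtdap (2.19, adjusted p = 1.33e-05), Dmkn (2.75, adjusted p = 6.12e-07), Krt17 (1.92, adjusted p = 4.55e-04), Il4i1 (5.69, adjusted p = 1.22e-12), Tnfrsf11a (3.56, adjusted p = 4.24e-09) and Cd40 (2.77, adjusted p = 2.58e-07) rose. The factors that were scarce at E13.5 were far higher in adult mTEC, with Aire at 6.43 (adjusted p = 1.01e-14) and Fezf2 at 5.24 (adjusted p = 4.59e-13). Bpifa1 fell (-5.14, adjusted p = 6.97e-12), and Krt19 was at -0.97 (adjusted p = 0.0643) and Mt1 at -0.77 (adjusted p = 0.173). Markers of other cell types differed between these libraries as well. All 7 tested erythroid genes rose (summed level 119 and 177 CPM in mTEC against 1.33 and 2.22 CPM in cTEC), as did 3 of 6 myeloid genes (667 and 788 CPM in mTEC against 247 and 40.8 CPM in cTEC) and 3 of 5 neural genes. Of 8 thymocyte genes Cd3e, Lck and Rag1 fell and Cd7 rose (39.4 and 33.5 CPM in mTEC against 101 and 72.1 CPM in cTEC). Of 6 mesenchymal genes Col1a1 and Pdgfrb rose and Dcn fell (99.3 and 68.9 CPM in mTEC against 493 and 318 CPM in cTEC). Of 6 endothelial genes Tek rose and Emcn and Kdr fell. Of the 16 stress genes 2 rose and 6, Fos among them, fell. Without cells that held thymocyte UMIs the calls were 3215 higher and 1736 lower, and the part of the other lists was not tested. This fit leaves 1 residual degree of freedom, and with any 1 library left out the calls were from 1348 to 2079 higher and from 619 to 869 lower.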

How the data were processed

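Single-cell RNA libraries of wild-type mouse TEC were made by the authors with the 10x Chromium system, and the deposited matrices hold raw UMI counts per gene and called cell, without normalization. The submitters' processing notes name Cell Ranger 2.0.1, STAR 2.5.1b and bcl2fastq 2.17, whereas the deposited matrices of data set 2 carry Cell Ranger 3.0.1 in their headers. Data set 1 (5 libraries, E13.5 TEC among them) lists 27998 genes and data set 2 (3 libraries) 31053. The genome build of the counts is not given in the sources used here. The study's limits of 5% mitochondrial UMIs and 5000 genes were applied. The rule, the gene lists and the tests were chosen with earlier results of these data known.

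Cells are not replicates. At E13.5, with 1 library, counts were summed over cells, scaled to CPM and compared without a test as log2 ratios with a pseudocount of 10 CPM. A gene was counted as 2-fold different where the log2 ratio was at least 1 and one group reached 50 CPM. A gene below 50 CPM in the other group could thus be counted only on the side of the group that reached it. Intervals (95%, exact) cover counting error only. Genes are named as list members or as the 12 highest and 12 lowest ratios, without the genes of the rule, mitochondrial, ribosomal protein and haemoglobin genes and Xist. Doublets were not removed, since Scrublet (scanpy 1.11.5) marked 1 of 1981 cells and so gave no usable estimate.

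In the later libraries and in the adult groups, sums per library were tested by quasi-likelihood in edgeR 4.0.16 under R 4.3.3, after filterByExpr and TMM, on the 27514 genes in both gene lists, with Benjamini-Hochberg adjustment and a threshold of 0.05. The standard error was the estimate divided by the root of the F statistic. DESeq2 1.42.0 was an alternative. Nothing says that libraries came from separate animals or litters. With the block in each fit, p-values measure how the difference varied between libraries (later fit) or data sets (adult fit). The spread of each gene was also drawn toward that of other genes, with 13.8 and 53.7 prior degrees of freedom in the later and adult fits. The small p-values of the adult fit thus rest largely on spread shared over genes. The adult replicate numbers are names in accession order, and the data set is the block.

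Both fits were tested on 10 simulated data sets, each with 200 genes changed by 2 on the log2 scale. The later fit, on 8847 genes, recovered from 190 to 198 of them, with 4.34% false calls. The adult fit, on 15650 genes, made no call in 1 of the 10 draws, recovered a median of 178 and at most 185, with 3.7% false calls. With 1 residual degree of freedom its yield is thus unstable, and a gene it does not call is not shown to be alike in both groups. The alternatives tried were other limits on Krt5, Psmb11, depth and cycle UMIs, other pseudocounts, scalings and filters, fits without a block or a library, and, added after seeing the data, the later fit with both adult mTEC libraries. Some members of the gene lists are not reported here by name.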

Additional observations from a re-analysis of the deposited data

How the results depend on the processing

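The 24 named genes kept their direction at E13.5 under all 13 alternatives run, but not their size: on the log2 scale Krt17 (2.94, from 2.57 to 5.43), Mt1 (3.79, from 3.08 to 5.34) and Krtdap (4.02, from 3.40 to 5.33) were highest against Psmb11-positive cells without a Krt5 UMI, and Pth (-2.45, from -3.44 to -0.12) was nearest to 0 with the parathyroid limit on both groups. Of the E13.5 gene values recomputed under these alternatives, 413 lay outside and 1108 inside a range spanning the main value and the counting interval. That interval is of the fold without a pseudocount, so that a small shift of a gene low in either group could also fall outside. Counts of genes, which are not among these values, were taken as moved when they changed by more than 1.5 times. The share of E13.5 cells was 16.1% with at least 1 Krt5 UMI and 14.1% among cells below the median of cycle UMIs, and a pseudocount of 50 CPM gave 64 genes higher and 45 lower. In the later libraries the DESeq2 test gave 474 higher and 161 lower, thinning 228 and 182, and no filter 533 and 468. With both adult mTEC libraries added (chosen after seeing the data) there were 130 higher and 148 lower. With no library block (no pairing of cells by library) there were 14 higher and 11 lower. Leaving out 1 library gave from 159 to 373 higher and from 134 to 246 lower, with the fewest without adult cTEC replicate 2. In the adult groups the DESeq2 test gave 1715 higher and 919 lower, no data set term (no replicate block) 2897 and 1360, and leaving out 1 library (with no data set term, so that the lone library of an arm is assumed to vary like the others) from 1348 to 2079 higher and from 619 to 869 lower. Adult Id4, at -1.53 on the log2 scale, lay from -2.96 to 0.29 with 1 library left out, and turned, no longer called, without adult cTEC replicate 2. Over the other genes and alternatives no direction turned after a call, while 162 values lost the call and 62 gained it in the later fit, and 384 and 22 in the adult fit. The causes were not tested. Precision is set by 235 cells of 1 library at E13.5 and by 24 to 62 cells of the rule a library later.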

Other observations

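Members with a Krtdap UMI and those without, after thinning to 3000 UMIs, had like levels of Krt17 (3038 and 2750 CPM) and Nfkbia (1073 and 1022 CPM), whereas Perp was at 1234 and 554 CPM, Gstm1 at 605 and 131 CPM and Krt5 itself at 3753 and 2224 CPM. The 91 members with a Prss16 UMI had more of other cortical genes than the 137 without, with Ccl25 at 322 and 34.1 CPM, Ctsl at 1165 and 360.1 CPM, Foxn1 at 84.2 and 26.8 CPM and Krt8 at 2234 and 1139 CPM. Their Krt5 levels were alike, at 3059 and 3054 CPM. These splits were chosen after the data were seen, lie within 1 library and were not tested.

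Bpifa1 varied between adult cTEC libraries in cells of the rule, at 8384 and 9.72 CPM, whereas over all cells of these libraries it was at 2897 and 1448 CPM. Krtdap over all cells of the adult mTEC libraries was at 171 and 181 CPM. These are whole libraries, and the 1075 CPM of the E13.5 Krt5-high cells is that of a part chosen on Krt5. No difference with age was read from these values, since Krtdap was at 56.7 CPM in the E13.5 Psmb11-positive cells and 34.4 CPM in those with neither gene.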
